A study of Arabidopsis thaliana with 18 samples.

Results

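The ATG8 genes of Arabidopsis thaliana, ATG8A to ATG8I, were followed in guard cells of leaf strips kept with sucrose, with mannitol or without sugars. The family was chosen by locus identifier, and its 9 members were 9 of the 22591 loci on the array. Each had 1 probe set, so no choice between probe sets was needed. In the reference table of genes ATG8A carries the symbol APG8A and ATG8I the symbol APG8H, so the loci are given once: ATG8A is AT4G21980, ATG8B AT4G04620, ATG8C AT1G62040, ATG8D AT2G05630, ATG8E AT2G45170, ATG8F AT4G16520, ATG8G AT3G60640, ATG8H AT3G06420 and ATG8I AT3G15580.

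ATG8 is a small ubiquitin-like protein that is joined to the lipid phosphatidylethanolamine and so anchored in the membrane of the growing autophagosome, the vesicle that carries cytoplasm to the vacuole for breakdown. There it recruits cargo through receptors such as NBR1. In plants the gene family is expanded, and autophagy is known for its induction when carbon is short. ATG8H and ATG8I differ from the other members in that their proteins end at the glycine that is joined to the lipid, whereas ATG8A to ATG8G are first trimmed by the ATG4 protease.

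Guard-cell RNA had been profiled on 18 Affymetrix ATH1 arrays, in 6 groups of 3, each array standing for guard cells of 1 plant. The plants were wild-type Col-0 or the null mutant rgs1 (the line rgs1-2), which lacks a regulator of G-protein signaling, and had an age of 8 to 10 weeks. Strips of 1 mm in width had floated for 5 h on 50 mM KCl with 0.1 mM CaCl2, with 150 mM sucrose, with 150 mM mannitol as the osmotic control, or with no sugars. Then 50 to 100 guard-cell pairs were dissected by hand for each sample, and their RNA was amplified in 2 rounds before labelling. Strips held guard cells together with mesophyll during the incubation, so the guard cells were treated within the leaf. Values are GCRMA signals on the log2 scale, on which a difference of 1 is a change of 2-fold.

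The genotype labels were borne out by RGS1. Its log2 signal was 8.17 to 10.37 on the 9 wild-type arrays and 3.14 to 5.75 on the 9 rgs1 arrays. All 10 guard-cell markers had a log2 signal of 4 or more on all arrays. The mesophyll markers were genes of photosynthesis and photorespiration and are not exclusive to mesophyll. Of these, 7 of 8 measured also had a log2 signal of 4 or more on all arrays. Whether their signal came from guard cells or from mesophyll was not tested. The summed signal of the mesophyll markers ranged in log2 from 14.12 to 14.60 without sugars, from 13.39 to 14.64 with mannitol and from 12.66 to 14.13 with sucrose. Between sucrose and mannitol 0 of the 8 passed the test, beside 2.36% of all probe sets. Of the 8, 6 were lower with sucrose and 2 higher, and 2 had an unadjusted p under 0.05, beside 18.7% of all. Against no sugars 7 were lower with sucrose and 1 higher, and 3 had an unadjusted p under 0.05, beside 21.4% of all. Wild type sucrose replicate 1 stood apart in the phloem markers, with a log2 sum of 8.89 against 4.05 to 4.43 on the other arrays, and in the trichome markers, with 7.72 against 3.49 to 5.75. On that array 1 gene carried most of each sum, at 8.69 among the 3 phloem markers and at 7.68 among the 2 trichome markers. Wild type sucrose replicate 2 had the lowest median correlation with the other arrays, 0.73 against 0.74 to 0.85. Between sucrose and mannitol, ATG8E, ATG8F and ATG8I were followed with and without each of these arrays. Other results with sucrose include both unless stated, and the part of the marker transcripts in them was not tested. On these arrays fewer transcripts per cell and fewer cells of a type cannot be told apart.

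All 9 ATG8 genes had a log2 signal above 4 on every array of guard-cell RNA. The lowest value of any member on any array was 4.53, for ATG8G, and a log2 signal of 4 was taken as the floor for a test, so all 9 were tested in every comparison. Over the 18 arrays the means ran from 7.07 for ATG8G to 12.08 for ATG8F, but levels of different probe sets depend on their probes and are not set against each other. The range over the arrays differed among members. That of ATG8D went from 6.95 to 8.96, whereas ATG8E ranged from 4.63 to 11.89.

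**Figure D1:**
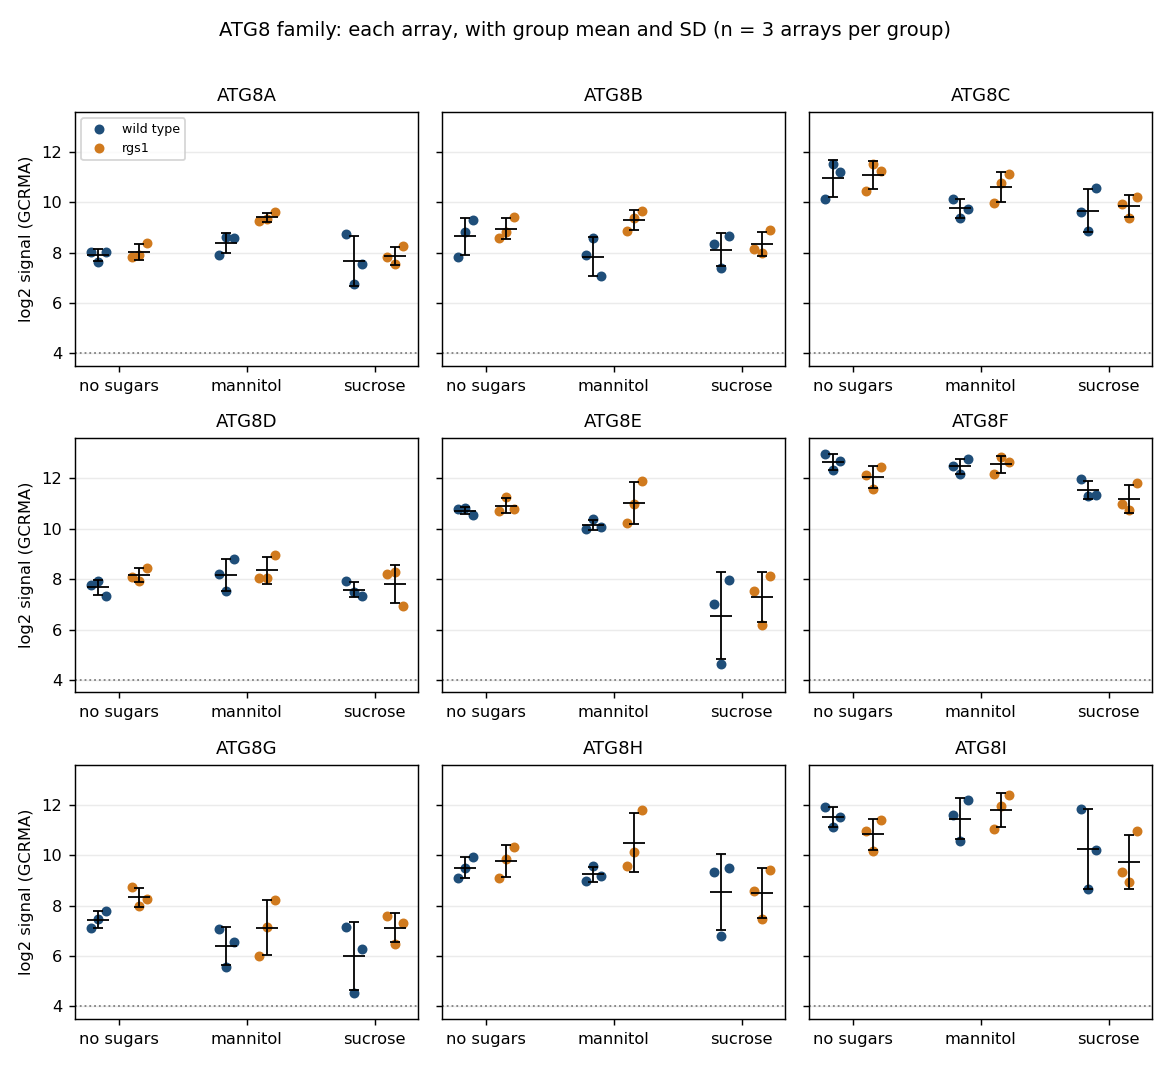
Log2 signal of each ATG8 gene (vertical axis) on every array, by treatment (horizontal axis) and genotype (colour). Each point is 1 array, the black bars give the group mean and SD (n = 3), and the dotted line is the floor of 4. ATG8E with sucrose lies at 4.63 to 8.14 and below all of its 12 other values.

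The question of the main comparison was how guard-cell transcripts differ between sucrose and mannitol at 150 mM each. With sucrose, ATG8E transcripts were 12.8-fold lower than with mannitol, and ATG8E was the 1 of 9 members called at an adjusted p under 0.05. The other 8 members also had lower means with sucrose, with differences of -1.63 to -0.20 on the log2 scale, but none of these passed the test. Of all 10979 probe sets tested in this comparison, 2.36% were called.

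ATG8E had log2 signals of 7.01, 4.63 and 7.98 on the 3 wild type sucrose arrays and of 7.55, 6.17 and 8.14 on the 3 rgs1 sucrose arrays. With mannitol it had 9.98, 10.38 and 10.09 in the wild type and 10.22, 10.99 and 11.89 in rgs1. Without sugars it had 10.77, 10.83 and 10.56 in the wild type and 10.72, 11.26 and 10.79 in rgs1. The sucrose arrays were low in both genotypes, and the highest of them was 1.84 below the lowest mannitol array. The spread of the sucrose arrays, 6.91 ± 1.33 (SD, n = 6), was wider than that of the mannitol arrays, 10.59 ± 0.73, or of the arrays without sugars, 10.82 ± 0.24.

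For ATG8E the difference between sucrose and mannitol was -3.68 on the log2 scale (limma, standard error 0.57, 95% interval -4.90 to -2.45, adjusted p = 0.00642). By p it ranked 25th of the 10979 probe sets. An exact permutation test of the 6 against 6 arrays, two-sided, gave ATG8E p = 0.00216, the smallest that 924 rearrangements allow. Any probe set whose groups do not overlap gets this unadjusted p, so it restates the lack of overlap and adds nothing to it. Without wild type sucrose replicate 2, which held the lowest value, the ATG8E difference was -3.22 (limma, adjusted p = 0.00695). Leaving out any other array also kept it called. Leaving out replicate 2 from all 4 groups gave -2.87 for ATG8E and ended the call (limma, adjusted p = 0.155, with 4 arrays against 4). Leaving out replicate 1 or replicate 3 in that way, also with 4 arrays against 4, kept ATG8E called. Replicate 3, taken to be the later growth batch, gave -2.93 for ATG8E on its own (limma, adjusted p = 0.400, with 2 arrays against 2).

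ATG8F, which groups with ATG8E and ATG8G by protein sequence, had the second lowest p of the members. Its log2 signals ran from 10.76 through a median of 11.32 to 11.96 with sucrose and from 12.19 through 12.57 to 12.85 with mannitol. The 2 groups did not overlap, and the gap between them was 0.22. The ATG8F difference was -1.17 (limma, standard error 0.30, adjusted p = 0.0557), or 2.24-fold. Its unadjusted exact permutation p was again 0.00216, which follows from the lack of overlap. The study itself names AUTOPHAGY8F among the genes that sucrose lowered on these arrays. It filtered probe sets by absent calls rather than by a floor on the log2 signal. Without wild type sucrose replicate 1, the array with the high phloem and trichome marker sums, ATG8F passed the test at -1.29 (limma, adjusted p = 0.0424). Without wild type sucrose replicate 2 it was -1.16 (limma, adjusted p = 0.107). ATG8E and ATG8F made 2 of 9 members whose 6 sucrose and 6 mannitol arrays did not overlap, beside 2.80% of all probe sets tested.

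Of the pair whose proteins need no trimming, ATG8I had log2 signals of 8.66 to 11.84 with sucrose (median 9.78) and of 10.58 to 12.38 with mannitol (median 11.78). The highest of its sucrose values, 11.84, came from wild type sucrose replicate 1. The ATG8I difference was -1.63 (limma, standard error 0.54, adjusted p = 0.124), and without that array ATG8I passed the test (limma, adjusted p = 0.0469). Without wild type sucrose replicate 2 the ATG8I difference was -1.36 (limma, adjusted p = 0.241). ATG8H had 6.78 to 9.48 with sucrose (median 8.97) and 8.997 to 11.80 with mannitol (median 9.57). For ATG8H 4 of the 6 mannitol arrays exceeded all sucrose arrays, and the difference of -1.36 did not pass (limma, standard error 0.58, adjusted p = 0.220).

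Among ATG8A to ATG8D and ATG8G, ATG8A had the largest difference. It had 6.77 to 8.75 with sucrose (median 7.69) and 7.92 to 9.61 with mannitol (median 8.94), a difference of -1.11 (limma, standard error 0.39, adjusted p = 0.146). ATG8B, ATG8C, ATG8D and ATG8G differed by -0.34, -0.42, -0.56 and -0.20, each less than the SD of either of its groups or close to it, and their 95% intervals spanned 0. The sign of ATG8G turned without wild type sucrose replicate 2, to 0.20, without rgs1 mannitol replicate 3, to 0.085, and without replicate 2 of every group, to 0.13. That of ATG8B turned without replicate 2, to 0.14, and in replicate 3 on its own, to 0.41, and that of ATG8D without replicate 3, to 0.026. Counting signs alone, 9 of 9 members were lower with sucrose, beside 48.5% of all probe sets, and the median over the members was -1.11 against 0.03 over all. At an unadjusted p under 0.05 stood 5 of the 9 members, beside 18.7% of all probe sets tested. The signs of all 9 were the same after quantile normalization and after median centring.

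**Figure D2:**
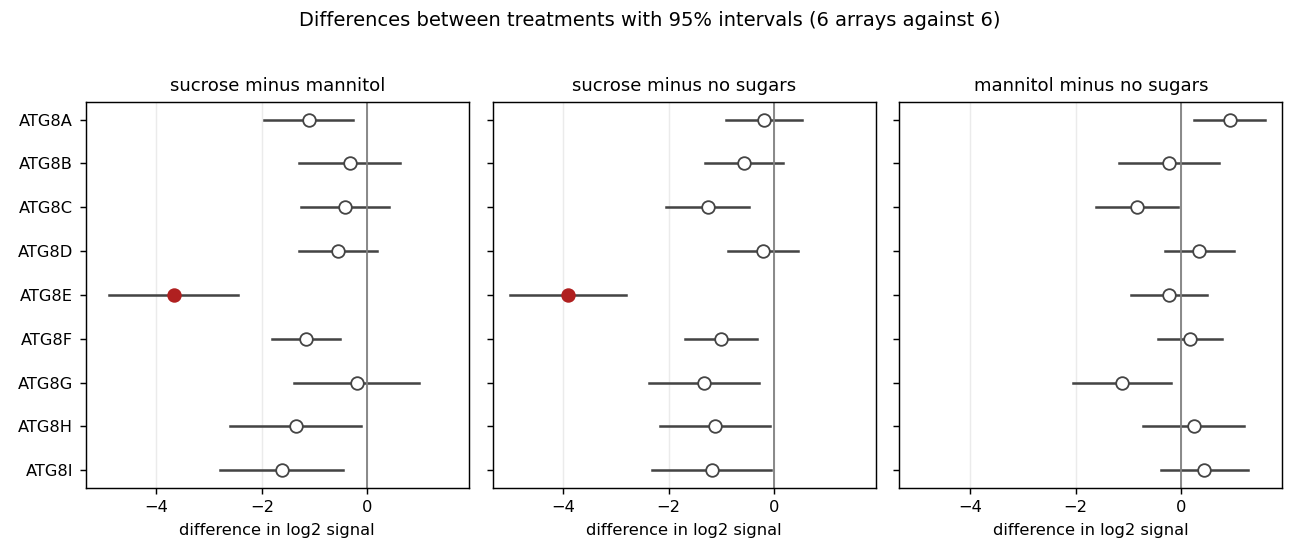
Difference in log2 signal between treatments (horizontal axis) for each ATG8 gene (vertical axis), with both genotypes, 6 arrays against 6. Lines are 95% intervals and filled red points are differences with an adjusted p under 0.05. ATG8E is filled in both comparisons with sucrose, at -3.68 and -3.91, and no gene is filled for mannitol against no sugars.

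Set against no sugars in place of mannitol, sucrose gave the same member as the 1 of 9 called, beside 4.11% of 10937 probe sets. This comparison uses the same sucrose arrays as the one above, so its values stand beside those rather than as a repeat. ATG8E was lower by 3.91 on the log2 scale, or 15.0-fold (limma, standard error 0.51, 95% interval -5.01 to -2.81, adjusted p = 0.00127), and it ranked 20th by p. Its highest sucrose array was 2.42 below the lowest array without sugars, and ATG8E was the 1 of 9 members whose groups did not overlap, beside 3.36% of all. The ATG8E call was kept without each array and without each replicate number, with differences from -4.56 to -3.04. It was lost in replicate 3 on its own, at -2.62 (limma, adjusted p = 0.116).

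Next to ATG8E in size of difference stood ATG8G and ATG8C. ATG8G had log2 signals of 4.53 to 7.59 with sucrose (median 6.81) and 7.10 to 8.74 without sugars (median 7.88), a difference of -1.33 (limma, adjusted p = 0.132). ATG8C had 8.85 to 10.56 with sucrose (median 9.76) and 10.13 to 11.54 without sugars (median 11.23), a difference of -1.26 (limma, adjusted p = 0.0669). ATG8F, 2.01-fold lower (limma, adjusted p = 0.0880), ATG8H, at -1.12, and ATG8I, at -1.19, did not pass either. ATG8A, at -0.19, and ATG8D, at -0.22, had overlapping values in the 2 treatments. All 9 means were lower with sucrose, also after quantile normalization and median centring, beside 49.6% of all probe sets, and 6 of 9 stood at an unadjusted p under 0.05, beside 21.4%. The sign turned for ATG8A without wild type sucrose replicate 2, to 0.012, and without replicate 2 of every group, to 0.018, and for ATG8D without replicate 3, to 0.052.

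Mannitol against no sugars asked what the osmotic control itself does. None of the 9 members was called, beside 0.275% of 10913 probe sets, and 3 of 9 had an unadjusted p under 0.05, beside 15.7%. None of the 9 had groups that did not overlap, beside 1.39% of all. ATG8A had 7.92 to 9.61 with mannitol (median 8.94) and 7.63 to 8.40 without sugars (median 7.96). For ATG8A 5 of the 6 mannitol arrays exceeded every array without sugars, a difference of 0.92 (limma, standard error 0.31, adjusted p = 0.190). ATG8G and ATG8C were lower with mannitol, by -1.12 (limma, adjusted p = 0.239) and -0.84 (limma, adjusted p = 0.292), with overlapping arrays. For ATG8E the difference was -0.23 with a 95% interval of -0.96 to 0.49, which excludes a difference of the size seen with sucrose. The 9 signs were mixed, with 4 members lower and 5 higher.

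The response to sucrose against mannitol was then followed within each genotype. ATG8E was lower with sucrose in each genotype, with a wild-type difference of -3.61 and an rgs1 difference of -3.74. When arrays were left out or settings changed, the wild-type ATG8E difference ran from -4.36 to -2.54. With 3 arrays against 3, neither difference passed the test (limma, adjusted p = 0.370 for the wild type and 0.128 for rgs1). In the wild type 0 of 9 members were called, beside 0.00898% of 11131 probe sets, and 1 of 9, ATG8E, had an unadjusted p under 0.05, beside 8.92%. In rgs1 0 of 9 were called, beside 0.0268% of 11201, and 5 of 9 had an unadjusted p under 0.05, beside 12.2%. Besides ATG8E these were ATG8A, ATG8I and ATG8F, with differences of -1.52, -2.04 and -1.39, and ATG8H, which was 4.01-fold lower.

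The test of whether the response differs by genotype called 0 of 9 members, beside 0% of 12608 probe sets, and 0 of 9 had an unadjusted p under 0.05, beside 3.96%. For ATG8E this interaction was -0.14, with a 95% interval of -2.24 to 1.97, so a difference in response within these bounds is not excluded by these arrays. The mean with sucrose was below that with mannitol in both genotypes for 7 of the 9. For ATG8B the wild-type difference was 0.28 against -0.95 in rgs1, and for ATG8G it was -0.41 against 0.003.

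Between the genotypes over all treatments, 0 of 9 members were called, beside 0.00921% of 10853 probe sets, and 2 of 9 had an unadjusted p under 0.05, beside 5.27%. ATG8G had log2 signals of 4.53 to 7.77 in the wild type (median 7.08) and of 6.02 to 8.74 in rgs1 (median 7.59), a difference of 0.91 (limma, adjusted p = 0.875). ATG8B had 7.06 to 9.28 in the wild type (median 8.35) and 7.98 to 9.67 in rgs1 (median 8.85), a difference of 0.66 (limma, adjusted p = 0.905). The genotypes overlapped in both genes.

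When the 6 group means of each gene were ranked, most neighbours could not be separated. Of 45 pairs of neighbouring groups over the 9 genes, 41 overlapped and 4 did not, where 2.55% of such pairs over all probe sets with a mean of 4 or more did not overlap. These pairs are given as a description, with no test. For ATG8E the order was rgs1 mannitol (11.03 ± 0.83), rgs1 no sugars (10.92 ± 0.30), wild type no sugars (10.72 ± 0.14), wild type mannitol (10.15 ± 0.21), rgs1 sucrose (7.29 ± 1.01) and wild type sucrose (6.54 ± 1.73; SD, n = 3 each). The gaps of ATG8E without overlap lay between wild type no sugars and wild type mannitol and between wild type mannitol and rgs1 sucrose. ATG8A was highest in rgs1 mannitol, at 9.26, 9.33 and 9.61, with no overlap with the next group, wild type mannitol, at 7.92, 8.62 and 8.60. ATG8G was highest in rgs1 no sugars, at 8.74, 7.99 and 8.25, with no overlap with wild type no sugars, at 7.10, 7.47 and 7.77.

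**Figure D3:**
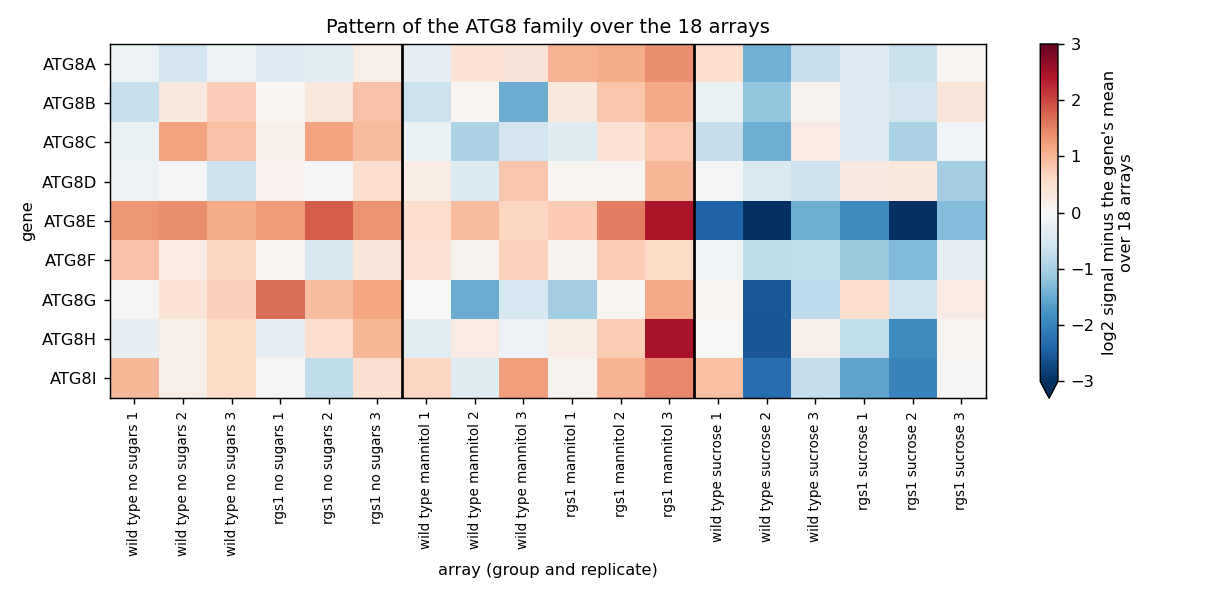
Log2 signal of each ATG8 gene (rows) on each array (columns) minus the mean of that gene over the 18 arrays, in colour; values under -3 share the darkest blue. ATG8E is blue on all 6 sucrose arrays, wild type sucrose replicate 2 is the lowest array for 6 of the 9 genes and rgs1 mannitol replicate 3 is the highest for 6.

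Members also varied together from array to array. Over the 18 arrays the Pearson correlation was above 0 for 35 of the 36 pairs of members, with a median of 0.54, a lowest value of -0.04 for ATG8B with ATG8D and a highest value of 0.90 for ATG8F with ATG8I. The arrays share treatments, and after the group means had been subtracted 32 of the 36 pairs stayed above 0, with a median of 0.51. The highest of these within-group values were 0.90 for ATG8E with ATG8H and 0.87 for ATG8F with ATG8I. ATG8D followed the others least, with within-group values of -0.39 with ATG8B to 0.34 with ATG8G. Wild type sucrose replicate 2 was the lowest array for 6 of the 9 members and rgs1 mannitol replicate 3 the highest for 6. These correlations are a description over arrays, with no test. Pairs of other genes were not set beside them, so whether the shared variation is particular to the family was not tested.

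The genes of most similar pattern to ATG8E over the 18 arrays, among 10405 probe sets with a mean of at least 4 and a locus of their own, were AT1G80180 (r = 0.97), RAP2.6 (r = 0.94), AT2G15960 (r = 0.93), BZO2H3 (r = 0.92) and J8 (r = 0.92). RAP2.6 is an ERF-type transcription factor, BZO2H3 is the transcription factor bZIP63 and J8 is a DnaJ-type protein. For AT1G80180 the mean log2 signal was 6.45 with sucrose, 9.49 with mannitol and 9.70 without sugars. BZO2H3 had 3.60, 8.04 and 7.92 in that order, and J8 had 6.66, 10.81 and 11.18. The BZO2H3 mean with sucrose lay under the floor of 4, so the size of its difference is uncertain. RAP2.6 had 10.96, 12.68 and 12.59, and AT2G15960 had 9.72, 12.07 and 11.85. For ATG8F the most similar gene was PSY1, which encodes a sulfated peptide (r = 0.91), for ATG8G RAB1C, a small GTPase (r = 0.91), for ATG8H SIS (r = 0.88), and for ATG8I AT1G27290 (r = 0.92). ATG8A, ATG8B and ATG8C had AT3G15900 (r = 0.89), AT5G38220 (r = 0.86) and AT5G63905 (r = 0.86), and ATG8D had the weakest, AT4G08330 (r = 0.70). Since ATG8E and its neighbours share the sucrose arrays, these values rank genes and carry no test.

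The other genes of autophagy were followed as a list of 31 measured genes in 6 roles. Left out were the ATG1 kinases, ATG13B, the ATG14 genes, VPS38, the ATG4 proteases, ATG16 and SH3P2, which the reference table does not name. Of the listed genes none was called between sucrose and mannitol (0 of 26 tested), and 7 of 26 had an unadjusted p under 0.05, beside 18.7% of all probe sets. By sign 25 of the 26 were lower with sucrose, with a median of -0.50. Against no sugars 0 of 27 were called and 5 had an unadjusted p under 0.05, beside 21.4% of all, with 15 lower, 12 higher and a median of -0.28. Between mannitol and no sugars 0 of 26 were called and 7 had an unadjusted p under 0.05, beside 15.7% of all, with 21 higher and a median of 0.60. The comparisons share arrays, and the shares called and lower among all probe sets are those given above, with 52.0% lower between mannitol and no sugars.

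The conjugation enzymes act directly on ATG8. ATG7, the enzyme that activates ATG8, had log2 signals of 8.62 to 10.48 with sucrose (median 9.37), 9.502 to 12.23 with mannitol (median 10.77) and 8.58 to 10.16 without sugars (median 9.41). Its difference was -1.45 between sucrose and mannitol (limma, adjusted p = 0.127), 1.55 between mannitol and no sugars (limma, adjusted p = 0.124) and 0.10 between sucrose and no sugars (limma, adjusted p = 0.911). ATG5, part of the complex that helps to attach ATG8 to the lipid, had a difference of -1.18 between sucrose and mannitol (limma, adjusted p = 0.244), 1.44 between mannitol and no sugars (limma, adjusted p = 0.148) and 0.26 between sucrose and no sugars. Both genes had their highest mean with mannitol and overlapping arrays in all 3 comparisons.

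In membrane supply, ATG18H, a phosphoinositide-binding protein, had -1.58 between sucrose and mannitol (limma, adjusted p = 0.0997) and 1.45 between mannitol and no sugars (limma, adjusted p = 0.120). ATG2, which works with the ATG18 proteins on the growing membrane, had -1.49 (limma, adjusted p = 0.109) and 0.82. Of the kinase complex that starts autophagy, the regulatory subunit ATG13A had -1.30 between sucrose and mannitol (limma, adjusted p = 0.279) and ATG11, an adaptor of that complex, had -1.14 (limma, adjusted p = 0.168). Of the lipid kinase complex, the catalytic subunit VPS34 had -1.20 (limma, adjusted p = 0.162) and its partner VPS15 had -0.51.

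Among the receptors, NBR1, which binds ATG8 and ubiquitin-tagged cargo, had log2 signals of 9.08 to 10.27 with sucrose (median 10.08) and 9.92 to 10.99 with mannitol (median 10.59), a difference of -0.64 (limma, adjusted p = 0.303). ATI1, an ATG8-interacting protein, had -0.32. Its arrays did not overlap between mannitol, at 8.79 to 9.73, and no sugars, at 7.89 to 8.71, beside 1.39% of all probe sets. ATI1 was not called there either. Between sucrose and mannitol TOR, the kinase that holds autophagy down when nutrients are plentiful, had -0.34 (limma, adjusted p = 0.721). KIN10, a catalytic subunit of the energy-sensing kinase SnRK1, had -0.31 (limma, adjusted p = 0.746).

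**Figure D4:**
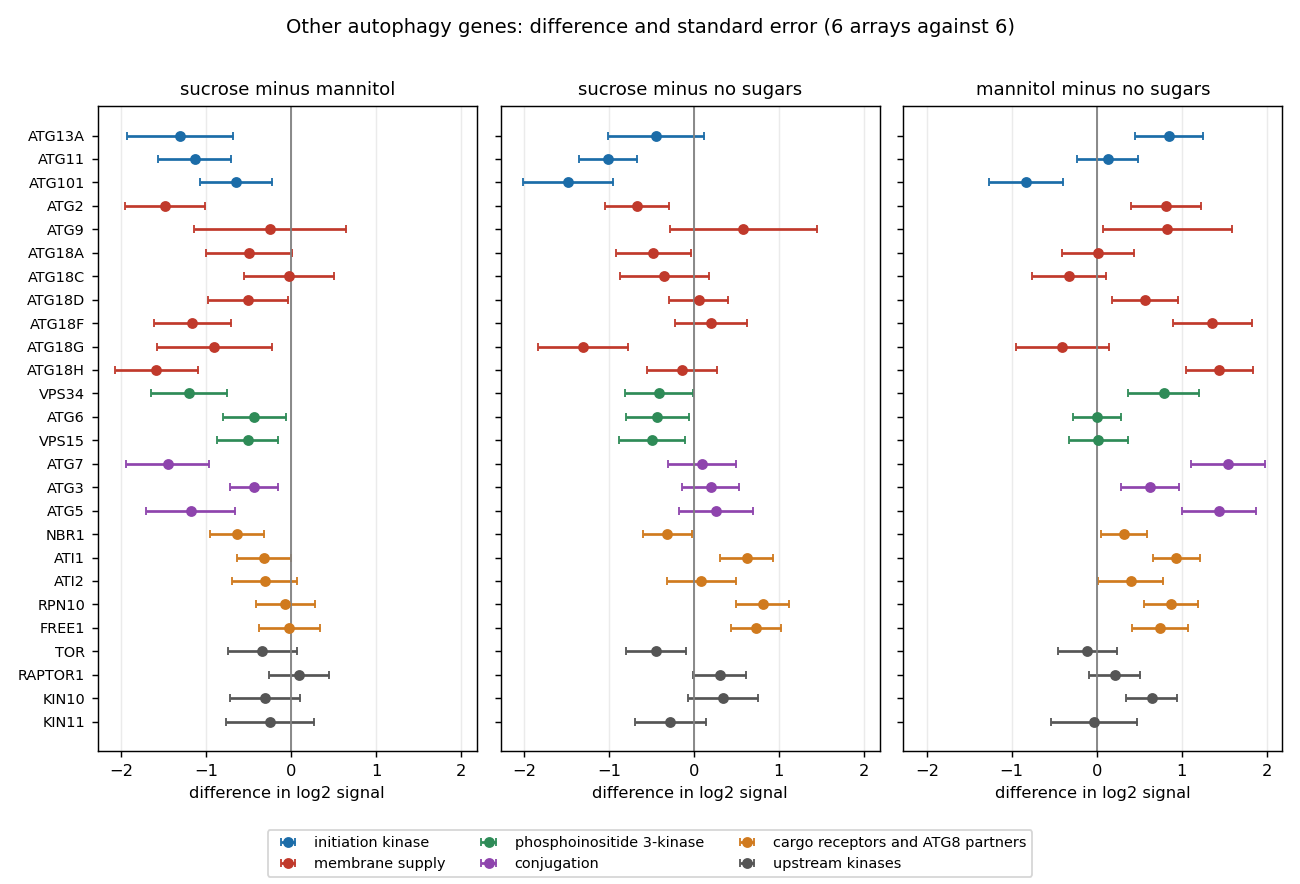
Difference in log2 signal between treatments (horizontal axis) with its standard error for the 26 other autophagy genes tested between sucrose and mannitol (vertical axis), coloured by role, 6 arrays against 6. Of these, 25 lie below 0 for sucrose against mannitol and 21 above 0 for mannitol against no sugars, and none passed the test.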

How the data were processed

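Guard-cell RNA of 18 plants, 3 in each of 6 groups, was profiled on Affymetrix ATH1 arrays. The deposited values are log2 signals, 1 per probe set, which the authors made from the scans with MAS 5.0 and GCRMA (background correction, normalization between arrays and summary of the probes; version not given in the sources used here). The 2 deposited tables hold equal values. No value was missing, and no array pair was identical. The share of probe sets at a log2 signal of 4 or more was 47.6% to 49.2% per array. The number of arrays limits the precision.

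Probe sets were matched to genes by locus. A probe set entered a test if it reached a log2 signal of 4 on a number of arrays equal to the size of the smaller group. Differences were tested with limma 3.58.1 (lmFit, eBayes) in R 4.3.3 on the arrays of each comparison, with Benjamini-Hochberg adjustment over all probe sets tested, at an adjusted p under 0.05. The genotype and interaction tests used all 18 arrays. The fit was tested on simulated data. Single members were also compared by exact permutation tests. Correlations and plots were made with Python 3.11.15.

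The members, gene lists and tests were chosen with earlier results of these data known. Named are all 9 ATG8 genes, any other autophagy gene called in a pooled comparison (there was none), the pair with the largest difference between sucrose and mannitol in each role, and the genes of most similar pattern. Of 48 other autophagy loci listed, the 12 that the reference table does not name were set aside, as were 4 without a probe set and 1 with a shared probe set. Replicate 3 was taken to be the batch that the methods describe as grown months later, which the labels do not state. Alternatives were other filters, scaling by quantiles or by array medians, a prior that follows the intensity, all 18 arrays in one fit, genotype, batch or replicate number as a term, and leaving out arrays.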

Additional observations from a re-analysis of the deposited data

How the results depend on the processing

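The ATG8 values were recomputed under each alternative. Of 1512 such values 1491 kept their side of the threshold and, where called, their direction. A call was lost by 3 and gained by 18, and 0 called values reversed. Values called in neither setting count as kept even where their sign turned, so the share kept says little. In the main fits only ATG8E was called, in the pooled comparisons with sucrose. It kept the call in 23 of 25 settings against mannitol and in 24 of 25 against no sugars. The 3 losses were those of ATG8E given in the report. Between sucrose and mannitol 2 members, ATG8E and ATG8F, were called with quantile normalization, with an intensity trend in the prior and with all 18 arrays in one fit. Between sucrose and no sugars 3 members, ATG8C, ATG8E and ATG8F, were called with the trend. Between sucrose and mannitol in rgs1 1 member, ATG8E, was called with all 18 arrays in one fit. Replicate 3 alone, an alternative chosen after seeing the data, called 0 members and 0 genes in each pooled comparison. The 18 gains include those by the exact permutation test, which are unadjusted.

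Without single arrays or replicate numbers, the members called ranged from 0 to 3 between sucrose and mannitol and from 1 to 1 against no sugars, and the count was 0 in the other comparisons. Without replicate 2 ATG8E was lost between sucrose and mannitol, and without wild type sucrose replicate 1 ATG8F and ATG8I were gained. The genes called ranged in the same way from 6 to 307 between sucrose and mannitol, 27 to 524 between sucrose and no sugars, 0 to 65 between mannitol and no sugars, 0 to 2 in the wild type, 0 to 27 in rgs1, 1 to 1 between genotypes and 0 to 1 in the interaction.

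Among all genes, between sucrose and mannitol the count called was 57 with no filter and 496 with all 18 arrays in one fit. Between sucrose and no sugars it was 164 with no filter, and between mannitol and no sugars 5. In the wild type it was 0 with no filter, 2 with the filter at log2 6, 2 with quantile normalization, 15 with all 18 arrays and 0 with a term for the later growth batch. In rgs1 it was 0 with no filter, 14 with the filter at log2 6, 68 with all 18 arrays and 8 with the batch term. The cause of these changes was not tested, beyond the number of probe sets or arrays that a setting adds.

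Replicate numbers are shared by the groups, but arrays of the same number did not deviate together (correlations -0.21 to 0.25, mean -0.02, with 1 of 18 over 0.1), so the numbers were not taken to pair the samples. With a replicate block the genes called were 94 between sucrose and mannitol, 202 between sucrose and no sugars, 13 between mannitol and no sugars and 0 in each genotype alone. The block changed the call of 0 of 63 ATG8 values, and ATG8E stayed called at adjusted p = 0.0189 and 0.0128 (limma). The planned choice of another probe set was not run, since each member has 1.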
